A study of Danio rerio with 15 samples.

Results

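The collagen chain genes are the 27 of 14836 genes in the expression table whose symbol is "col", a collagen number, "a" and a chain number. One gene that matches this pattern was left out and is not analysed here. By collagen number, 13 of the 27 genes encode fibrillar chains, 1 a chain of the basement membrane network (type IV), 5 chains of the fibril-associated collagens with interrupted helices (FACIT), 3 chains of the beaded filament group, 2 short chains of type VIII, 1 a transmembrane chain (type XVII) and 2 multiplexins. RefSeq's gene table for assembly GRCz12tu holds all 27 symbols and places them on 15 zebrafish chromosomes. No coordinates are given, since the files were made on another build, danRer11. The libraries are bulk RNA-seq of wild-type (WT) zebrafish fin tissue from within 1 bone segment on either side of an amputation plane, at 0, 4, 7, 14 and 21 days post amputation (dpa). Every group has 3 libraries, each from a pool of 10 animals, and the 0 dpa libraries serve as the control. The group called 4 dpa here carries that time in its sample labels, whereas the series design has 3.5 dpa. The labels give no age and do not name the fin, and every animal was wild type with no treatment named besides amputation.

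Collagens are secreted or membrane-bound proteins in which 3 polypeptide chains, each from its own gene or from copies of the same gene, wind into a triple helix. Type I is the main fibrillar collagen of bone and skin, type II that of cartilage, and the types V and XI are minor fibrillar collagens that are built into type I and type II fibrils and limit their width. The basement membrane types form sheets under epithelia and around vessels, and the FACIT chains sit on the surface of fibrils. A zebrafish fin ray consists of paired bone segments around connective tissue, nerves and vessels under a layered epidermis, and its growing tip holds actinotrichia, spicules made of fibrillar collagens and actinodin proteins. After amputation this matrix is rebuilt from the blastema, so the time course shows which collagen transcripts differ at the plane as the fin regrows.

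Values are TPM, a transcript abundance normalised for transcript length and library total, so that levels of different genes can be set side by side. They were rescaled between libraries by median-of-ratios size factors and are called scaled TPM. Gene tests were limma's moderated tests on log2(scaled TPM + 1) in 1 model of all 15 libraries, over the 10235 genes with at least 1 TPM in at least 3 libraries, and "adjusted p" is Benjamini-Hochberg adjusted over these genes, with a threshold of 0.05. A fold change on this scale understates the change of low genes. The p-values measure the spread between pools of animals, not between single fish. In a bulk sample, fewer cells of a type and less RNA per cell cannot be told apart.

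The libraries differed in ways the labels do not explain. A gene of type rRNA took from 2.26% of TPM, in 0 dpa replicate 1, to 71.6%, in 4 dpa replicate 3. Relative depth, read from the steps of low TPM values, differed 5.66-fold between libraries, and 19.4-fold outside the rRNA gene. The steps also gave an offset in effective transcript length that divided the libraries into 2 sets. Set A holds all libraries of 0 and 4 dpa, and set B all of 14 and 21 dpa. The 7 dpa group is split, with replicate 2 in set B and the others in set A. A comparison of 4 with 0 dpa therefore lies inside set A, while comparisons of 14 or 21 dpa with 0 dpa cross the sets, where the time point cannot be told apart from the library set beyond what the 3 libraries at 7 dpa resolve.

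On the scaled values collagen transcripts were more abundant in every later library than in any 0 dpa library. Their summed scaled TPM was 410, 657 and 566 in the 0 dpa libraries and 1194, 1087 and 1621 at 4 dpa. It was 1529, 1565 and 1161 at 7 dpa, 1198, 1198 and 816 at 14 dpa, and 858, 1089 and 976 at 21 dpa. The 0 dpa group had a mean of 544 ± 125 (SD, n = 3). The mean rose to 1301 ± 282 by 4 dpa and 1418 ± 223 by 7 dpa, and the means of the 14 and 21 dpa groups were 1070.4 ± 221 and 975 ± 115. In every group the library with the smallest rRNA share also had the lowest sum. These were 0 dpa replicate 1 (2.26%), 4 dpa replicate 2 (9.00%) and 7 dpa replicate 3 (9.23%). At the later times they were 14 dpa replicate 3 (13.3%) and 21 dpa replicate 1 (26.1%). The library with the largest rRNA share had the highest sum at 4, 7 and 21 dpa, but not at 0 and 14 dpa. The part of the rRNA share in the sums was not tested. The 3 type I chains made up most of the collagen sum. Their share of collagen TPM, which no scaling can move, was 85.9%, 87.8% and 85.1% at 0 dpa and from 90.3% to 90.9% at 4 dpa. It lay from 90.8% to 91.3% at 7 dpa, from 88.9% to 90.8% at 14 dpa and from 88.0% to 88.9% at 21 dpa, so no later library fell within the range at 0 dpa. As a part of all deposited TPM, collagen transcripts were a minor class, from 0.0271% in 0 dpa replicate 1 to 0.175% in 4 dpa replicate 1. On this unscaled measure the 0 dpa group was not separate, since 21 dpa replicate 2 at 0.0626% lay below 0 dpa replicate 2 at 0.0760%. The rRNA gene took 67.0% and 22.1% of TPM in these libraries. As a part of TPM outside the rRNA gene, collagen transcripts were 0.0277% to 0.0976% at 0 dpa and at least 0.109% in every later library.

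**Figure D1:**
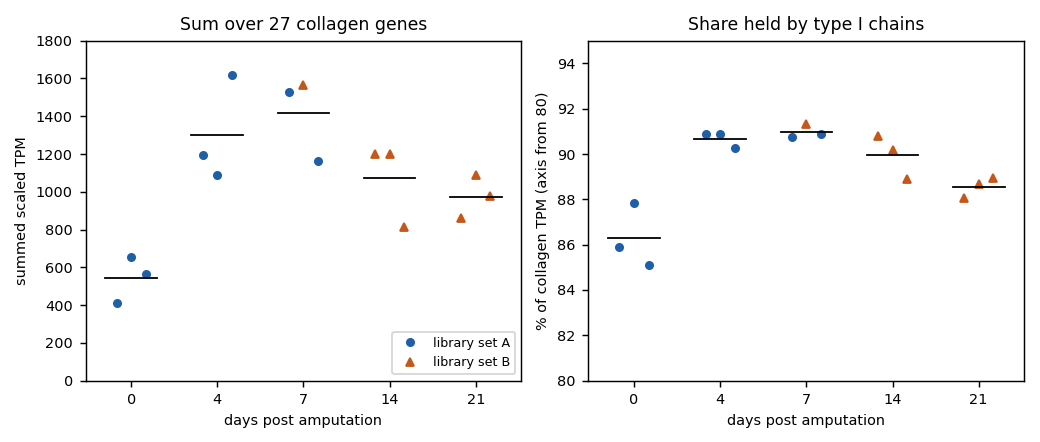
Left, summed scaled TPM of the 27 collagen chain genes by days post amputation. Right, the percentage of collagen TPM held by the 3 type I chains, on an axis that starts at 80. Each point is 1 library, circles for library set A and triangles for set B, and bars are means of 3 libraries; the 0 dpa libraries lie lowest in both panels.

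Of the 27 genes, 17 passed the filter on low values and were tested: 12 of the 13 fibrillar chains and 5 others. The filter did not select genes that were high at 1 time point only, since each of the 17 had at least 1 TPM in at least 11 libraries and in some library of every time point, and 12 of them in all 15. The other 10 genes reached at most 1.05 TPM in any library and are described by their values further on. Over the time course 10 of the 17 tested genes passed limma's moderated F test at an adjusted p under 0.05, where 26.7% of all tested genes did. All 10 were fibrillar chains, 10 of 12 tested, and 0 of the 5 other chains passed, with adjusted p from 0.0505 for col17a1a to 0.561 for col28a1b. For col4a5 the adjusted p of this F test was 0.0539. The 5 were 1 gene each of types IV, VIII, XVII, XVIII and XXVIII, and no FACIT gene was tested. The 27 genes include no type VI or type XII chain, so the classes outside the fibrillar one were only partly measured. None of the 17 had its highest mean at 0 dpa, where 28.1% of all tested genes had theirs. Of the 17, 6 had it at 4 dpa and 7 at 7 dpa, the times that held the highest mean of 24.7% and 11.6% of all tested genes. The 14 dpa group had 1 and the 21 dpa group 3, against 15.1% and 20.4% of all tested genes.

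The type I chains were the most abundant collagen transcripts, and each rose from 0 to 4 dpa. In zebrafish col1a1a and col1a1b are paralogs that encode alpha 1 type chains, and col1a2 encodes the alpha 2 chain. Scaled TPM of col1a1a was 105, 209 and 160 in replicates 1, 2 and 3 at 0 dpa, 415, 366.5 and 573 at 4 dpa, 605, 629 and 396 at 7 dpa, 462, 449 and 272 at 14 dpa, and 256, 353 and 348 at 21 dpa. Every later library was above the highest 0 dpa library. The rise of col1a1a from 0 to 4 dpa was 1.54 on the log2 scale (SE 0.31, adjusted p = 0.00397 in limma), and that from 0 to 7 dpa was 1.80 (SE 0.31, adjusted p = 0.00560).

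For col1a2 the scaled TPM was 122, 163 and 149 at 0 dpa, 332, 309 and 446 at 4 dpa, 393, 384 and 319 at 7 dpa, 295, 313 and 226 at 14 dpa, and 266, 314 and 234 at 21 dpa. The 0 dpa libraries again lay below all others, and col1a2 rose from 0 dpa by 1.31 at 4 dpa (log2, SE 0.23, adjusted p = 0.00128) and by 1.33 at 7 dpa (adjusted p = 0.0053). Scaled TPM of col1a1b was 125, 205 and 172 at 0 dpa, 338, 312 and 444 at 4 dpa, 389, 415 and 341 at 7 dpa, 330.2, 318 and 227 at 14 dpa, and 234, 299 and 286 at 21 dpa. Its groups at 0 dpa and each later time did not overlap either, and it rose by 1.13 at 4 dpa (adjusted p = 0.00608) and by 1.21 at 7 dpa (adjusted p = 0.0119). At 14 and 21 dpa the changes of col1a1b, 0.81 and 0.72, missed the threshold (adjusted p = 0.0515 and 0.0658), while col1a1a, at 1.33 and 1.05, and col1a2, at 0.94 and 0.90, passed it (adjusted p from 0.0164 to 0.0386). These chains were not tested against each other at 14 or 21 dpa alone. Tests of col1a1b/col1a1a and col1a1a/col1a2 over the whole time course are given further on. How the reads common to col1a1a and col1a1b were divided is not given in the sources used here, so the levels of these paralogs are less certain than their sum.

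Markers of mesenchyme and bone were measured in the same libraries. The 13 fibroblast and blastema mesenchyme markers, all tested, summed to 128 to 178 scaled TPM at 0 dpa, 315 to 877 at 4 dpa, 246 to 277 at 7 dpa, 205 to 235 at 14 dpa and 315 to 357 at 21 dpa. The actinotrichia gene and1 accounted for much of that sum at 4 dpa, with a mean of 341 scaled TPM against 4.69 at 0 dpa. Of the 13, 7 were called higher at 4 than at 0 dpa, beside 7.87% of all tested genes. At 7, 14 and 21 dpa 4, 3 and 8 were called higher, beside 2.53%, 4.56% and 6.27%. The 9 osteoblast markers in the table summed to 2945 to 8785 scaled TPM at 0 dpa, 1851 to 3772 at 4 dpa, 5087 to 13595 at 7 dpa, 6916 to 8917 at 14 dpa and 5651 to 8946 at 21 dpa. That sum is dominated by bglap, whose mean was 3844 at 0 dpa and 1415 at 4 dpa (adjusted p = 0.147). At 4 dpa 3 of the 9, sp7, ifitm5 and phex, were called higher, beside 7.87% of all tested genes. At 7, 14 and 21 dpa 3, 4 and 3 of the 9 were called higher, beside 2.53%, 4.56% and 6.27%. No marker of either list was at 0 as a group mean, and the part of these cells in the collagen result was not tested.

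The type XI chains had the 3 lowest adjusted p over the time course among the 17 tested genes. Type XI is a minor fibrillar collagen, best known from cartilage, whose chains col11a1a, col11a1b and col11a2 are also made in other connective tissues. Scaled TPM of col11a2 was 2.51, 3.49 and 3.10 at 0 dpa, 9.44, 9.30 and 11.0 at 4 dpa, 11.4, 11.7 and 10.3 at 7 dpa, 8.54, 9.51 and 7.06 at 14 dpa, and 6.76, 9.25 and 7.68 at 21 dpa. The lowest later library was well above the highest 0 dpa library. The rise of col11a2 was 1.44 at 4 dpa (log2, SE 0.16, adjusted p = 4.66e-05 in limma) and 1.60 at 7 dpa (adjusted p = 0.000204), then 1.22 at 14 dpa (adjusted p = 0.000793) and 1.14 at 21 dpa (adjusted p = 0.000479).

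The paralogs col11a1a and col11a1b rose too, with different times of highest mean. Scaled TPM of col11a1a was 2.85, 2.81 and 3.81 at 0 dpa, 9.04, 10.0 and 11.4 at 4 dpa, 7.40, 7.42 and 6.42 at 7 dpa, 7.15, 6.01 and 4.58 at 14 dpa, and 4.83, 5.07 and 5.33 at 21 dpa. Its 4 dpa libraries were above all others and its 0 dpa libraries below all others. Scaled TPM of col11a1b was 3.18, 5.90 and 5.95 at 0 dpa, 14.1, 12.3 and 15.7 at 4 dpa, 16.2, 19.1 and 12.5 at 7 dpa, 12.6, 13.2 and 10.5 at 14 dpa, and 9.67, 11.4 and 13.3 at 21 dpa. From 0 to 4 dpa col11a1a rose by 1.43 (SE 0.17, adjusted p = 5.78e-05) and col11a1b by 1.36 (SE 0.22, adjusted p = 0.000837). From 0 to 7 dpa the changes were 0.96 for col11a1a (adjusted p = 0.00549) and 1.52 for col11a1b (adjusted p = 0.00195). At 21 dpa col11a1b was still higher by 1.08 (adjusted p = 0.00539), and col11a1a by 0.56 (adjusted p = 0.0393), a call that 10 of the 15 fits without 1 library did not make.

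Cartilage markers were measured in the same libraries as the type XI chains. The 7 chondrocyte markers in the table, of which 4 were tested, summed to 37.7 to 60.6 scaled TPM at 0 dpa, 41.8 to 53.4 at 4 dpa, 43.0 to 56.4 at 7 dpa, 49.9 to 58.7 at 14 dpa and 69.8 to 85.1 at 21 dpa. Of these, hapln1a gave most of the sum. At 4 dpa limma called 0 of the 4, where 7.87% of all tested genes were called higher and 7.26% lower. There sox9a and matn4 had an unadjusted p under 0.05, both lower (log2 change -1.06 and -0.51), as 2936 of 10235 tested genes did in either direction. At 14 and 21 dpa sox9b was called higher, beside 4.56% and 6.27% of all tested genes. At 21 dpa all 4 were higher at an unadjusted p under 0.05, which 2902 of 10235 tested genes had in either direction. The defining genes matn1, cnmd and ucmab had group means of at most 0.268, 0.263 and 0.0553 scaled TPM, and ucmab was at 0 in 4 of the 5 group means.

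Type V chains changed in different patterns. The type V chains join type I fibrils in tissues that are not cartilage. Scaled TPM of col5a2a was 13.7, 14.4 and 17.6 at 0 dpa, 27.8, 23.6 and 41.2 at 4 dpa, 28.03, 26.2 and 23.5 at 7 dpa, 18.9, 18.2 and 16.2 at 14 dpa, and 19.3, 20.6 and 15.6 at 21 dpa. The 4 and 7 dpa libraries were above all others, and the 14 and 21 dpa libraries overlapped with those at 0 dpa. From 0 to 4 dpa col5a2a rose by 0.94 (log2, SE 0.20, adjusted p = 0.00608 in limma), and at 7 dpa its change of 0.73 was just past the threshold on the other side (adjusted p = 0.0533). Scaled TPM of col5a3b was 5.02, 4.03 and 6.44 at 0 dpa, 7.36, 8.20 and 12.7 at 4 dpa, 10.1, 9.29 and 10.3 at 7 dpa, 7.44, 8.22 and 5.34 at 14 dpa, and 8.10, 7.03 and 6.47 at 21 dpa. It rose by 0.74 at 4 dpa (adjusted p = 0.0284) and by 0.84 at 7 dpa (adjusted p = 0.0363), calls that 3 and 5 of the 15 fits without 1 library did not make. Its paralog col5a3a was lower throughout, at 0.674 to 1.38 scaled TPM at 0 dpa, 0.782 to 1.298 at 4 dpa, 1.51 to 1.99 at 7 dpa, 1.46 to 1.85 at 14 dpa and 1.79 to 1.95 at 21 dpa. The 0 and 4 dpa libraries of col5a3a lay below all later ones, and it changed over time (adjusted p = 0.0432), a call lost in 12 of the 15 fits without 1 library.

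The remaining tested fibrillar chains were the type II chain col2a1b and the type XXVII chains. Scaled TPM of col2a1b was 6.11, 6.09 and 6.57 at 0 dpa, 8.35, 8.82 and 10.1 at 4 dpa, 9.60, 8.27 and 8.60 at 7 dpa, 8.09, 8.03 and 6.60 at 14 dpa, and 9.01, 8.23 and 6.72 at 21 dpa. The 0 dpa libraries were the 3 lowest of all, and col2a1b was called higher at 4 dpa by 0.47 (adjusted p = 0.0470), which 13 of the 15 fits without 1 library did not call. The other type II gene, col2a1a, the main cartilage collagen gene of zebrafish, was at 0 in 9 libraries and reached at most 0.0681 scaled TPM. Type XXVII is a fibrillar collagen known from cartilage and, in zebrafish, from the notochord and spine. Scaled TPM of col27a1b was 1.25, 2.35 and 1.62 at 0 dpa, 2.42, 2.00 and 3.55 at 4 dpa, 1.74, 1.62 and 0.976 at 7 dpa, 1.403, 1.53 and 1.04 at 14 dpa, and 2.57, 2.39 and 2.56 at 21 dpa. The 4 and 21 dpa libraries were above all libraries of 7 and 14 dpa, and col27a1b changed over time (adjusted p = 0.0457), a call lost in 12 of the 15 fits without 1 library. The paralog col27a1a was at 0.422 to 1.64 at 0 dpa and at 1.48 to 3.89 in the later libraries, with adjusted p = 0.101 over time.

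**Figure D2:**
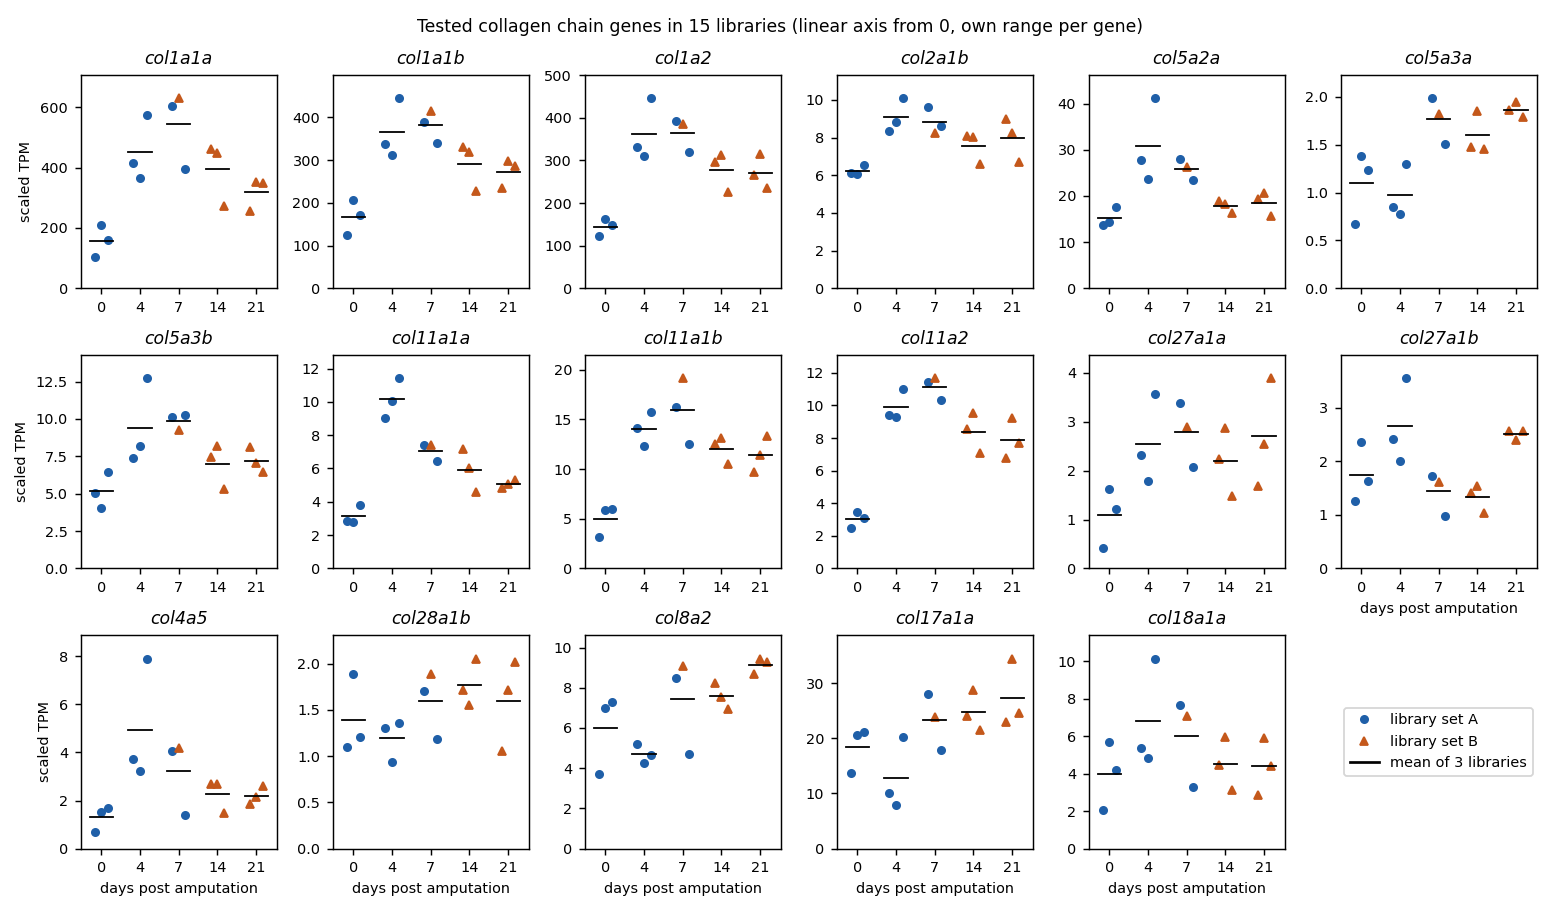
Scaled TPM of each of the 17 tested collagen chain genes by days post amputation, on linear axes that start at 0 and have their own range for each gene. Points are libraries, circles for set A and triangles for set B, and bars are means of 3 libraries; in the type I and type XI panels the 0 dpa points lie below all others.

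Of the 5 tested chains that are not fibrillar, 1 was called in a comparison with 0 dpa. The gene col4a5 encodes a chain of the type IV network of basement membranes. Its scaled TPM was 0.691, 1.52 and 1.67 at 0 dpa, 3.73, 3.21 and 7.91 at 4 dpa, 4.06, 4.19 and 1.41 at 7 dpa, 2.67, 2.70 and 1.47 at 14 dpa, and 1.87, 2.13 and 2.62 at 21 dpa. The 4 dpa libraries did not overlap with those at 0 dpa, and 7 dpa replicate 3 lay within the 0 dpa range. At 4 dpa col4a5 was higher by 1.32 (log2, SE 0.32, adjusted p = 0.0127 in limma), the only call among the 5 chains that are not fibrillar, and 2 of the 15 fits without 1 library did not make it. Of the endothelial markers 4 of 8 tested were called higher at that time, beside 7.87% of all tested genes. The 10 markers in the table summed to 37.1 to 41.8 scaled TPM at 0 dpa and 69.7 to 76.6 at 4 dpa, then to 48.6 to 54.0, 49.3 to 52.8 and 43.8 to 50.1 at 7, 14 and 21 dpa. The 4 called at 4 dpa were pecam1, tie1, fli1a and plvapb, while cdh5 had a group mean of at most 0.0313, and the part of endothelium in the col4a5 value was not tested.

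The gene col17a1a encodes the transmembrane collagen of hemidesmosomes, by which basal epidermal cells hold on to the basement membrane. Its scaled TPM was 13.7, 20.6 and 21.2 at 0 dpa, 10.1, 7.94 and 20.2 at 4 dpa, 28.1, 23.9 and 17.9 at 7 dpa, 23.998, 28.8 and 21.6 at 14 dpa, and 22.96, 34.5 and 24.6 at 21 dpa. At 4 dpa replicates 1 and 2 were the lowest of all 15 libraries and replicate 3 lay within the 0 dpa range. The change from 0 to 4 dpa was -0.58 (log2, SE 0.30, adjusted p = 0.219) and that over time just missed the threshold (adjusted p = 0.0505). Without 4 dpa replicate 3, the library with the largest rRNA share and the least depth, col17a1a was lower at 4 than at 0 dpa by -0.94 (adjusted p = 0.0299) and higher at 7 than at 4 dpa by 1.26 (adjusted p = 0.0192). In both comparisons the other 14 of the 15 fits without 1 library made no call, with adjusted p in limma up to 0.570 and 0.447. The 9 basal epidermis markers, all tested, summed to 8558 to 10473 scaled TPM at 0 dpa, 5554 to 7333 at 4 dpa, 8200 to 9071 at 7 dpa, 8804 to 9884 at 14 dpa and 8324 to 9248 at 21 dpa. At 4 dpa 2 of the 9, krtt1c19e and itga6b, were called lower than at 0 dpa and 0 higher, beside 7.26% and 7.87% of all tested genes. The log2 changes of lamb4 and lama5, 0.62 and 0.59, did not pass. At 21 dpa, when col17a1a had its highest mean, itga6b and itgb4 were called lower, and itga6b was at 14 dpa too. Of all tested genes 7.33% were called lower at 21 dpa and 5.59% at 14 dpa, and both comparisons cross the library sets. None of the 9 was at 0, and the part of basal epidermis in the col17a1a values was not tested.

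The other 3 tested chains showed no call in any comparison. The short-chain collagen col8a2, known in mammals from the membrane under the corneal endothelium, was at 3.72, 7.01 and 7.30 scaled TPM at 0 dpa, 5.18, 4.24 and 4.65 at 4 dpa, 8.50, 9.06 and 4.72 at 7 dpa, 8.25, 7.55 and 6.94 at 14 dpa, and 8.68, 9.45 and 9.29 at 21 dpa. Its 21 dpa libraries were above those at 0 dpa without overlap, and its adjusted p over time was 0.0815. From 0 to 4 dpa its change was -0.26 on scaled TPM and 0.05 on TPM as deposited, so its direction there depends on the scaling. The multiplexin col18a1a, a basement membrane proteoglycan core whose end piece is endostatin, was at 2.07 to 5.71 scaled TPM at 0 dpa, 4.85 to 10.2 at 4 dpa, 3.27 to 7.67 at 7 dpa, 3.12 to 5.98 at 14 dpa and 2.88 to 5.91 at 21 dpa, and these ranges overlap. The beaded filament chain col28a1b, of a type known in mice from peripheral nerve, ranged from 0.932 to 2.05 over the 15 libraries with adjusted p = 0.561 over time. The 7 Schwann cell and nerve markers in the table summed to 43.2 to 63.8 scaled TPM at 0 dpa and 20.9 to 25.2 at 4 dpa. At 7, 14 and 21 dpa they summed to 30.2 to 48.5, 48.1 to 70.5 and 66.2 to 74.5. Of the 6 tested, 4 were called lower at 4 dpa, mpz, mbpb, plp1b and egr2b, beside 7.26% of all tested genes. The other tested markers, sox10 and erbb3b, were not called there. At 7 dpa plp1b was called lower, beside 2.45% of all tested genes. At 14 and 21 dpa mpz was called higher, beside 4.56% and 6.27% of all tested genes.

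The 10 genes below the filter were col2a1a, the FACIT genes col9a1a, col9a1b, col9a2, col9a3 and col19a1, the beaded filament genes col28a1a and col28a2a, the short-chain gene col8a1a and the multiplexin col15a1b. Type IX chains coat type II fibrils in cartilage, so col2a1a and the type IX genes together are the usual cartilage set. For 6 of the 10 genes the TPM steps gave read numbers, which never passed 8 in a library. One of them, col9a3, had 7, 3 and 4 reads at 0 dpa, 0 reads in each 4 dpa library, 0, 0 and 1 at 7 dpa, 6, 5 and 3 at 14 dpa, and 2, 0 and 2 at 21 dpa. A count of 0 reads at 4 dpa allows up to 0.0472, 0.0509 and 0.336 scaled TPM in the 3 libraries at 3 reads each, against measured values of 0.146, 0.0735 and 0.146 at 0 dpa, so only the deeper 4 dpa libraries set a limit under the 0 dpa level. These read numbers assume that the smallest step is 1 read and cover counting error only.

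The low gene with the widest range was col28a2a, named after its values were seen. Its scaled TPM was 0.0335, 0.0395 and 0.118 at 0 dpa, 0.716, 0.489 and 0.894 at 4 dpa, 0.366, 0.217 and 0.111 at 7 dpa, 0.0447, 0.222 and 0.227 at 14 dpa, and 0.175, 0.174 and 0.605 at 21 dpa. The 4 dpa libraries were above every 0, 7 and 14 dpa library, and 21 dpa replicate 3 lay among them. Fitted without the filter on low values, col28a2a had a log2 change of 0.67 from 0 to 4 dpa (SE 0.13). It reached 1 TPM in 1 library only, at 4 dpa, and was picked on these same values, so no test is given for it. In the opposite direction, col15a1b was at 0.147 to 0.453 scaled TPM at 0 dpa and at 0.0962 to 0.119 at 4 dpa, and not below 0.221 in any later library.

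Taking the comparisons one at a time, at 4 dpa 10 of the 17 tested collagen genes were higher than at 0 dpa and 0 were lower. Of all tested genes 7.87% were called higher and 7.26% lower. The groups did not overlap for 11 of the 17, against 31.6% of all tested genes. The 10 called genes were the 3 type I chains, the 3 type XI chains, col2a1b, col5a2a, col5a3b and col4a5. The median log2 change was 0.78 over the 17 genes, 1.04 over the 12 fibrillar chains and -0.11 over the 5 others, beside -0.03 over all tested genes. On TPM as deposited the median of all genes itself moved by 0.25 and that of the collagen genes was 1.06. There 7 collagen genes were called higher at 4 dpa, 1 at 7 dpa, 2 at 14 dpa and, by limma, 0 at 21 dpa, where 3 had an unadjusted p under 0.05. The shares of all tested genes called higher on TPM as deposited were 4.76%, 0.215%, 1.76% and 0.733% in these comparisons.

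At 7 dpa 7 collagen genes were higher than at 0 dpa and 0 were lower, where 2.53% of all tested genes were higher and 2.45% lower. These were the 3 type I chains, the 3 type XI chains and col5a3b. Groups did not overlap for 11 of the 17, against 21.2% of all tested genes, and the median log2 change was 0.93 over the fibrillar chains and 0.32 over the others. At 14 dpa 5 were higher and 0 lower, where 4.56% of all tested genes were higher and 5.59% lower. At 21 dpa 5 were again higher and 0 lower, where 6.27% of all tested genes were higher and 7.33% lower. In both cases these were col1a1a, col1a2 and the 3 type XI chains. Groups did not overlap with 0 dpa for 9 of the 17 genes at 14 dpa and for 14 of the 17 at 21 dpa, against 30.4% and 29.9% of all tested genes. The fibrillar median was 0.68 at 14 dpa and 0.64 at 21 dpa, and that of the other 5 chains was 0.33 and 0.51. The 4 comparisons share the 0 dpa libraries, and 0 dpa replicate 1, the deepest library, held the lowest value of all 3 type I chains. Without it, the calls left at 14 dpa and at 21 dpa were col11a1b and col11a2. The share of all tested genes called in that fit is not given here, so the loss describes the fit and not these genes alone.

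**Figure D3:**
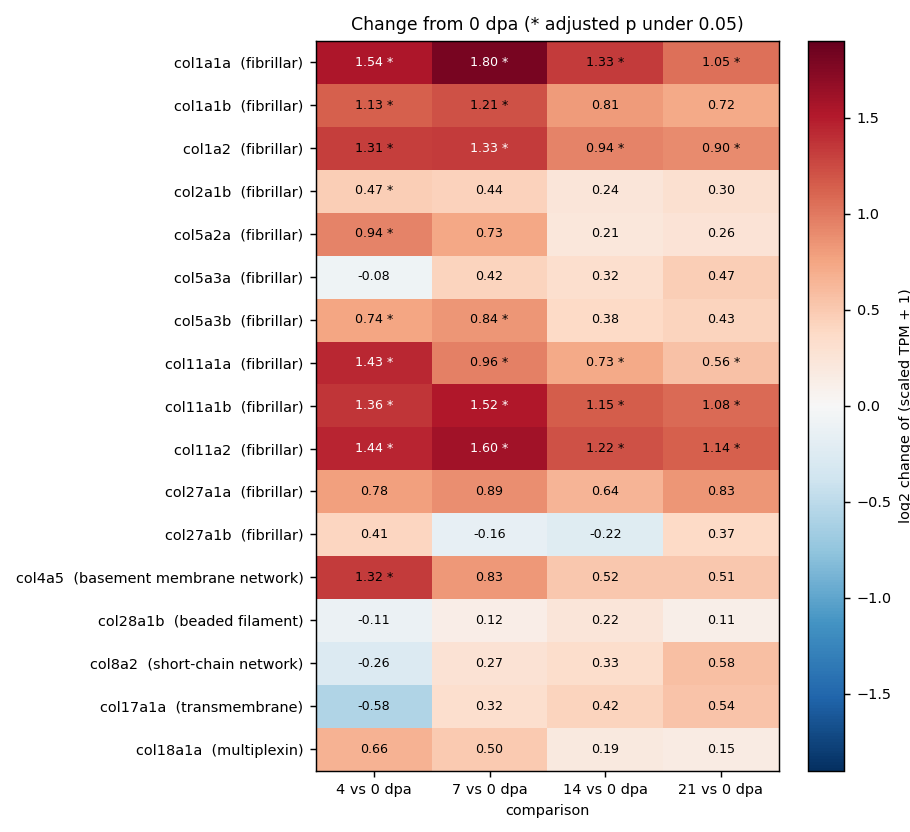
Log2 change of (scaled TPM + 1) from 0 dpa for the 17 tested collagen chain genes, with the class of each, in the 4 comparisons with 0 dpa. Red is higher and blue lower than at 0 dpa, and an asterisk marks an adjusted p under 0.05 in limma; called cells lie in the fibrillar rows except for col4a5 at 4 dpa.

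Between neighbouring later time points no collagen gene passed the threshold. From 4 to 7 dpa limma called 0 of the 17, where 3.63% of all tested genes were called, and 5 had an unadjusted p under 0.05, against 15.9% of all tested genes. Of the 5, col5a3a, col8a2 and col17a1a had the higher value at 7 dpa, and col11a1a and col27a1b the lower. From 7 to 14 dpa it called 0 of the 17, where 3.46% of all tested genes were called, and 3, col5a2a, col5a3b and col11a2, had an unadjusted p under 0.05 and a lower value at 14 dpa, against 16.7% of all tested genes. All 12 fibrillar chains had a lower mean log2 value at 14 than at 7 dpa, with a median change of -0.37. This comparison mixes library sets. Over all 17 collagen genes the median change was -0.31 on scaled TPM and -0.04 on TPM as deposited. On TPM as deposited the median of all tested genes itself moved by 0.26. From 14 to 21 dpa, which lie in the same library set, it called 0 of the 17, where 1.41% of all tested genes were called, and 1 had an unadjusted p under 0.05, against 10.7% of all tested genes. This was col27a1b, with a mean of 1.33 at 14 dpa and 2.51 at 21 dpa.

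A covariate for library set cannot move the 4 dpa changes, since all 0 and 4 dpa libraries lie in set A. Their unchanged size is therefore no test of library set, while the later changes lost precision. At 4 dpa 9 of the 17 collagen genes were still called, all but col2a1b, where 7.59% of all tested genes were called higher. At 7 dpa 5 were called, against 0.918% of all tested genes, namely col1a1a, col1a2 and the 3 type XI chains. At 14 and 21 dpa limma called 0, where 0.0391% and 0.156% of all tested genes were called higher, with 1 unadjusted p under 0.05 at each time, that of col11a2. Its change was 1.12 at 14 dpa (SE 0.31, adjusted p = 0.319) and 1.05 at 21 dpa (SE 0.31, adjusted p = 0.224), near the values without the covariate. For col1a1a the change at 21 dpa went from 1.05 to 0.69 with the covariate (SE 0.58), and for col11a1b from 1.08 to 0.68 (SE 0.39). The type I and type XI changes remained above 0 in all 4 comparisons, while those of col4a5 and col18a1a at 14 dpa and 21 dpa, of col8a2 at 14 dpa and of col28a1b at 14 and 21 dpa turned below 0. Within set A alone, which leaves 8 libraries, 6 genes were called at 4 dpa, the 3 type I and 3 type XI chains, against 5.39% of all genes tested there. At 7 dpa 1 was called, col11a2, against 0.184%.

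**Figure D4:**
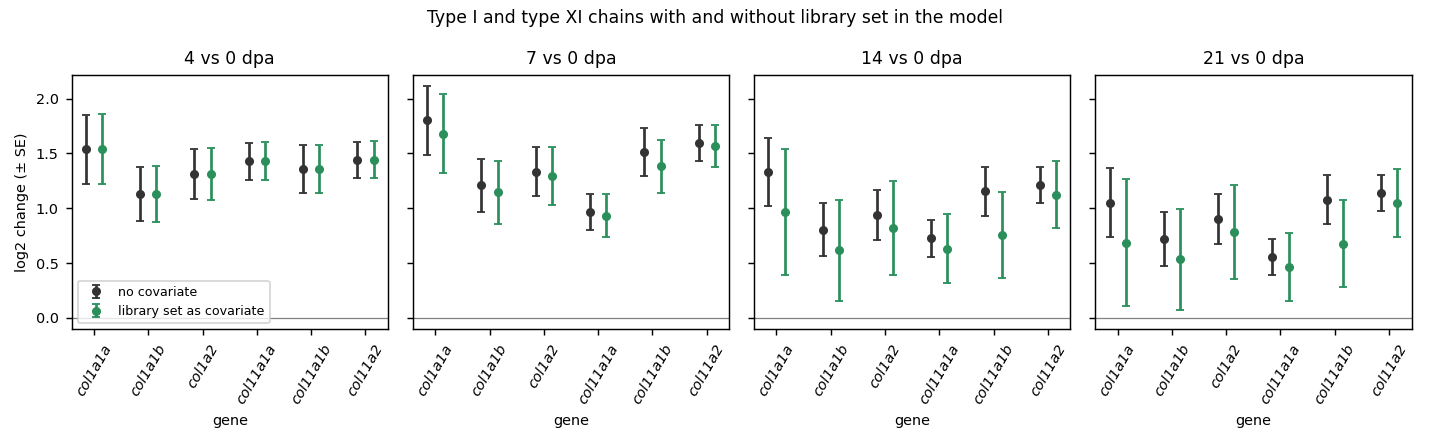
Log2 change from 0 dpa of the 3 type I and 3 type XI chains in 4 comparisons, as points with bars of 1 SE either way, in dark grey without and in green with library set as a covariate. The 4 dpa points must coincide, since all 0 and 4 dpa libraries are in set A, and at 14 and 21 dpa the green points lie lower with wider bars.

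Ratios of chains within a library do not depend on how libraries are scaled. The tests added 0.1 TPM to both chains, so for low chains they are not wholly free of the scaling. Of the 7 tested ratios 6 changed over time, 5 of them added after the table was seen. The test was an F statistic compared with its values in all 1401400 partitions of the 15 libraries into groups of 3, an exact permutation test in which any pattern of group means counts, with Benjamini-Hochberg adjustment over the 7 ratios. Of 8 ratios chosen at first, 6 had a chain that was not in the table or did not pass the filter, and 5 others were added after the table was seen. The 2 left of the first choice were col1a1b/col1a1a, which passed, and col1a1a/col1a2, which did not. The 5 added ratios were tested on a table already seen. The ratio of the type I paralogs col1a1b/col1a1a was 1.19, 0.984 and 1.08 at 0 dpa, 0.814, 0.852 and 0.775 at 4 dpa, 0.644, 0.659 and 0.861 at 7 dpa, 0.714, 0.708 and 0.833 at 14 dpa, and 0.912, 0.846 and 0.823 at 21 dpa. The paralogs were thus near parity at 0 dpa and col1a1a was the higher in every later library (exact permutation, adjusted p = 0.00581). The ratio col1a1a/col1a2 had a mean of 1.07 ± 0.209 (SD, n = 3) in the 0 dpa group and 1.47 ± 0.206 in the 7 dpa group, and did not pass (exact permutation, adjusted p = 0.176).

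A type XI and a type V chain were each set against col1a2. The ratio col11a2/col1a2 was 0.0205, 0.0214 and 0.0208 at 0 dpa and between 0.0247 and 0.0328 in all later libraries (exact permutation, adjusted p = 0.00853), a call that was lost with a pseudocount of 1 TPM (adjusted p = 0.176). The ratio col5a2a/col1a2 was 0.113, 0.0883 and 0.119 at 0 dpa, and its group means at 4, 7, 14 and 21 dpa were 0.0841, 0.0711, 0.0647 and 0.0683 (adjusted p = 0.00401, exact permutation). Both ratios use col1a2, and the other chains of types V and XI were not tested against it. The difference between 0 and 4 dpa lies inside library set A. The 0 and 4 dpa ranges of col5a2a/col1a2 overlapped, with 4 dpa replicate 3 at 0.0924, and those of col11a2/col1a2 did not.

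The other paralog pairs shifted too. The ratio col5a3b/col5a3a was 8.66, 10.5 and 9.80 at 4 dpa, above every other library, of which the highest was 7.45 in 0 dpa replicate 1 (exact permutation, adjusted p = 0.00853). The ratio col27a1b/col27a1a had a mean of 1.92 ± 0.914 (SD, n = 3) in the 0 dpa group and 1.05 ± 0.0651 in the 4 dpa group. It was lowest in the 7 and 14 dpa groups, with means of 0.514 ± 0.0444 and 0.620 ± 0.0856, and the 21 dpa mean was 1.04 ± 0.441 (adjusted p = 0.00401, exact permutation). It was below 1 in all 7 and 14 dpa libraries and above 1 in all 0 dpa libraries. The ratio col11a1b/col11a1a had means of 1.59 and 1.39 in the 0 and 4 dpa groups and of 2.24, 2.08 and 2.25 in the 7, 14 and 21 dpa groups (adjusted p = 0.0356, exact permutation), and leaving out 1 library moved this p up to 0.0813. The 0 and 4 dpa libraries lie in library set A and those of 14 and 21 dpa in set B. Between these, a shift of a ratio cannot be told apart from library set beyond what the 3 libraries at 7 dpa resolve.

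**Figure D5:**
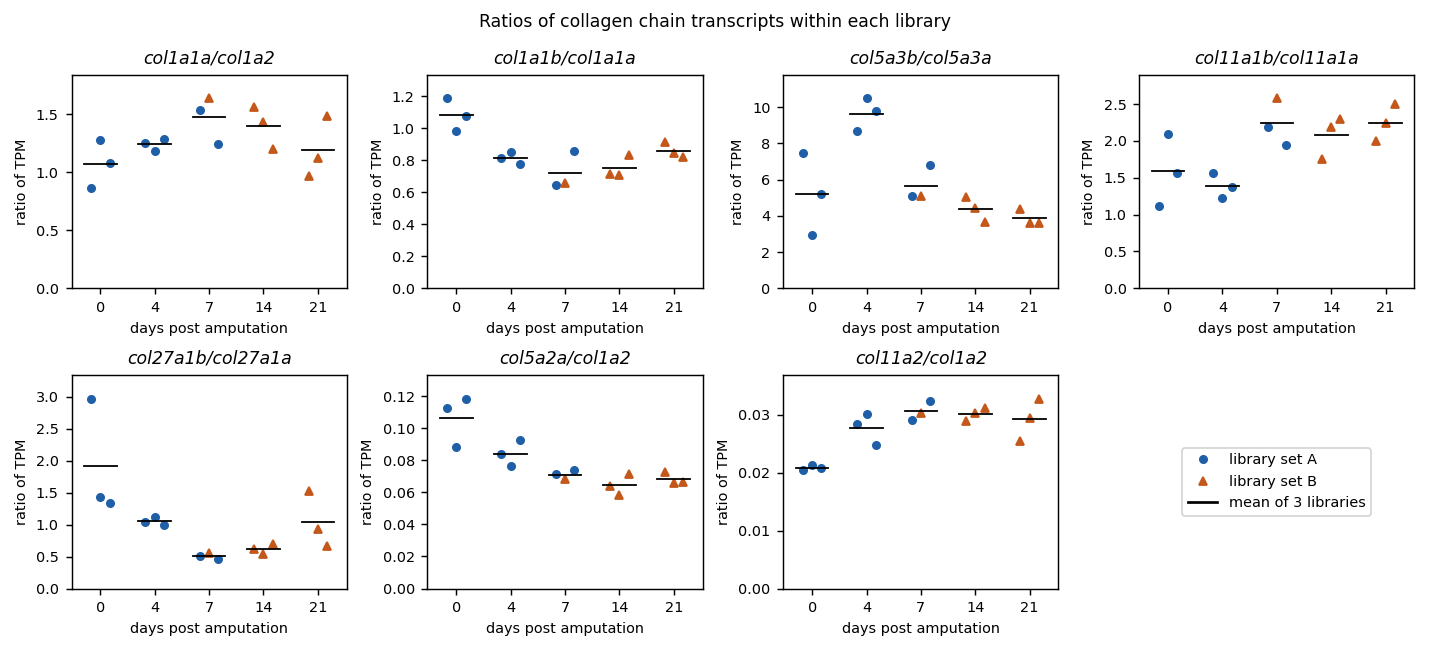
Ratio of TPM of 2 collagen chains in the same library, by days post amputation, for 7 pairs, on linear axes that start at 0. Points are libraries, circles for set A and triangles for set B, and bars are means of 3 libraries; col1a1b/col1a1a and col11a2/col1a2 separate the 0 dpa libraries from all others, and col5a3b/col5a3a the 4 dpa libraries.

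Genes that fold, process, crosslink and degrade collagen were read from a list of 37 tested genes. At 4 dpa 18 of the 37 were higher than at 0 dpa and 0 lower, with a median log2 change of 0.73, where 7.87% of all tested genes were higher. At 7, 14 and 21 dpa 12, 9 and 10 were higher and 0, 1 and 0 lower, where 2.53%, 4.56% and 6.27% of all tested genes were higher. Of all tested genes 2.45%, 5.59% and 7.33% were called lower at these times. In the folding and hydroxylation group 8 of 14 were higher at 4 dpa. The collagen chaperone gene serpinh1a (Hsp47) was at 5.25, 4.68 and 5.26 scaled TPM at 0 dpa and at 23.8, 25.3 and 21.4 at 4 dpa, a log2 change of 2.01 (SE 0.14, adjusted p = 1.41e-06 in limma). The lysyl hydroxylase gene plod2 was at 0.798, 1.33 and 1.20 at 0 dpa and at 10.7, 9.05 and 8.01 at 4 dpa, a log2 change of 2.28 (SE 0.20, adjusted p = 5.56e-06). Neither gene's groups came near to overlapping.

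After secretion, 3 of 5 genes for propeptide removal were higher at 4 dpa, where 7.87% of all tested genes were called higher and 7.26% lower. Of the 3, pcolce2b, an enhancer of the procollagen C-proteinase, went from a mean of 1.402 to 8.80 scaled TPM (log2 change 2.05, adjusted p = 1.04e-05 in limma). The more abundant pcolceb went the other way, from a mean of 22.8 to 14.0 (log2 change -0.66, adjusted p = 0.0577), and pcolcea from 16.3 to 23.7 (log2 change 0.52, adjusted p = 0.160). Neither passed in limma. Among the crosslinking enzymes 3 of 6 were higher, loxa, loxl2b and loxl3b, and among the breakdown genes 3 of 4 were, the matrix metalloproteinase genes mmp2, mmp9 and mmp14a. Of 3 receptor genes the integrin beta 1 gene itgb1b was higher. The 5 genes for export from the endoplasmic reticulum had 0 calls at 4 dpa in limma, with 0 of them at an unadjusted p under 0.05, and a median log2 change of -0.17. Of all 10235 tested genes 2936 had an unadjusted p under 0.05 in this comparison, and 5 genes are too few to tell apart from these shares. In this group creb3l1, a transcription factor that activates secretory genes in bone, was lower at 14 than at 0 dpa by -0.68 (adjusted p = 0.0251). The chaperone serpinh1a was lower at 14 than at 7 dpa, by -0.55 (adjusted p = 0.0490), and pcolce2b lower at 7 than at 4 dpa, by -0.99 (adjusted p = 0.0103). Each was the only gene of the 37 called lower in its comparison. From 0 to 14 dpa 5.59% of all tested genes were called lower. From 7 to 14 and from 4 to 7 dpa 3.46% and 3.63% were called in either direction. Each of these comparisons crosses or mixes the library sets.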

How the data were processed

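The authors deposited 1 table with TPM values of 15 libraries. The submitters' processing notes name Salmon 1.4.0, Trim Galore 0.6.7, cutadapt 3.5 and the build danRer11; the annotation is not given in the sources used here. Columns summed to 1000000. Per the labels' protocols, RNA was reverse transcribed, amplified by PCR and tagged with Tn5, and no molecular identifiers are named. Library scaling used median-of-ratios size factors from 10774 genes, between 0.575 and 1.48. Of 8232 candidate genes 1960 (23.8%) had low TPM values that were whole multiples of 1 step within 1%, which gave relative depth from 0.444 to 2.51 and the length offset behind library sets A and B. Absolute depth is unknown.

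Tests used limma 3.58.1 in R 4.3.3 with an intensity trend. The limma code was also run on data simulated from these libraries, with results not given here. Printed ratios are of TPM as deposited with no pseudocount, and their permutation tests used a pseudocount of 0.1 TPM on both chains. In each class the 2 most abundant and the 2 most clearly changed members were named in every library, paralogs beside them, and per comparison up to 5 called genes of largest change. Members, gene lists and tests were chosen with earlier results of these data known. Reads of paralogs, overlapping or antisense genes could have been divided in ways not recorded. Alternatives were other scalings, pseudocounts and filters, a replicate block, library set, and leaving out each library.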

Additional observations from a re-analysis of the deposited data

How the results depend on the processing

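No named gene reversed a call under any alternative run. Over 37 calls of single collagen genes, fits without 1 library kept 471 of 555 and lost 84, and the other alternatives kept 221 of 300 and lost 79, of which 23 were lost on TPM as deposited and 16 with library set as a covariate. The calls of type I, type XI and col5a2a over time held in all 15 fits without 1 library. On TPM as deposited, 5 collagen genes changed over time in place of 10, and the calls against 0 dpa fell to 1 at 7 dpa (from 7), 2 at 14 dpa (from 5) and 0 at 21 dpa (from 5). Of all tested genes 0.215%, 1.76% and 0.733% were called higher there, in place of 2.53%, 4.56% and 6.27% on scaled TPM. With library set as a covariate 0 were called at 14 dpa and 0 at 21 dpa, beside 0.0391% and 0.156% of all tested genes called higher. Fits of only the 2 time points compared gave 6 calls in place of 10 at 4 dpa and 1 in place of 7 at 7 dpa, and 2 in place of 5 for both later times. Within library set A, chosen after the data were seen, 6 were called at 4 dpa and 1 at 7 dpa, beside 5.39% and 0.184% of all genes tested there. Both use fewer libraries. The share of all tested genes is not given here for the F test on TPM as deposited or for the fits of 2 time points. Those counts describe the settings and not the collagen genes alone. Without the filter 1 gene, col9a3, was called from 7 to 14 dpa in place of 0. With a pseudocount of 1 the ratio col11a2/col1a2 had an adjusted p of 0.176 in the exact permutation test. In the 0 dpa libraries col11a2 was at 1.66, 4.03 and 2.80 TPM, so 1 TPM is large beside these values. Its part in the lost call was not tested.

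Without 1 library the count of calls ranged from 7 to 11 over time, from 7 to 10 at 4 dpa, from 5 to 10 at 7 dpa, from 2 to 6 for both 14 and 21 dpa, from 0 to 1 between 4 and 7 dpa, and was 0 in the other 2 comparisons. The share of all tested genes called in these fits is not given here. The count at 14 dpa fell to 2 without 0 dpa replicate 1, 14 dpa replicate 1 or 14 dpa replicate 2. That at 21 dpa fell to 2 without 0 dpa replicate 1 or 21 dpa replicate 2, and to 3 without 4 dpa replicate 1 or 21 dpa replicate 3. Adjusted exact permutation p ranged from 0.009 to 0.0813 for col11a1b/col11a1a, from 0.00641 to 0.0319 for col11a2/col1a2, from 0.0637 to 0.331 for col1a1a/col1a2, from 0.00154 to 0.0232 for col1a1b/col1a1a, from 0.000345 to 0.0134 for col27a1b/col27a1a, from 0.000709 to 0.0126 for col5a2a/col1a2 and from 0.00255 to 0.0382 for col5a3b/col5a3a.

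Replicate numbers did not pair the libraries. Deviations of libraries with the same number correlated from -0.626 to 0.650, with 12 of 30 pairs over 0.1, and 5 of 15 libraries correlated best with one of their own number. With the replicate block 7 collagen genes were called over time, 9 at 4 dpa, 6 at 7 dpa, and 5 and 3 in the 14 and 21 dpa comparisons. The share of all tested genes called with this block is not given here, so these counts describe the setting and not the collagen genes alone.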
